A study of Mus musculus with 14 samples.

Results

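The muscle coat of the colon was compared with that of the jejunum in wild-type mice, to describe the regional identity of the normal gut wall. The comparison used 6 of the 14 samples of the series, 3 bulk RNA-seq libraries of WT colon (tags t1, t6 and t7) and 3 of WT jejunum (t1, t6 and t7), taken by their tissue and genotype labels. All 6 came from C57BL/6 mice labelled "WT mTmG". mTmG is a reporter allele that marks cell membranes with a red fluorescent protein and switches to a green one where Cre recombinase has acted. Muscularis had been isolated by hand and flash frozen, and total RNA had been taken with Trizol. The protocol text names the colon's muscularis for the jejunum samples too, and the region is taken from the tissue label. No Cre, age, sex, treatment or pooling of animals is given in the sources used here, and nothing in the labels says that the libraries of a region came from separate animals, so p-values measure the spread between these libraries. The 6 bulk libraries labelled "Carmn iKO" (called libraries labelled KO here) served to estimate the spread of each gene and as other samples of the same regions. In bulk tissue, fewer cells of a type and less RNA per cell cannot be told apart.

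The muscularis holds a circular and a longitudinal layer of smooth muscle with the myenteric nerve plexus between them. Interstitial cells of Cajal pace the muscle, Pdgfra-positive interstitial cells relay inhibitory signals, and enteric neurons and glia form the local nervous system. A mesothelium covers the outer face. The jejunum mixes and moves a fluid meal, whereas the colon stores and compacts its contents. Along the gut, the position of a segment is written in Hox genes, homeobox transcription factors that lie in 4 clusters in the order in which they are used from front to back, so that members with high paralog numbers mark the hindgut.

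The WT libraries held 25849027 to 35641192 counts. Smooth muscle markers were high in each of them, with Myh11, the smooth muscle myosin heavy chain, at 13412 to 19702 CPM in WT colon and 13528 to 15948 CPM in WT jejunum. Markers of pacemaker cells (Kit, 123 to 178 CPM in WT colon and 136 to 144 CPM in WT jejunum) and neurons (Elavl4, 35.5 to 42.4 CPM in WT colon and 24.4 to 41.7 CPM in WT jejunum) were also present. Xist, expressed from the inactive X chromosome, lay at 0.11 to 0.371 CPM in WT colon and 0.146 to 0.331 CPM in WT jejunum, and the Y-linked Ddx3y at 61 to 72 CPM in WT colon and 64.7 to 86.2 CPM in WT jejunum. In the libraries labelled KO, Carmn itself went against the label, at 304 to 718 CPM in colon and 817 to 996 CPM in jejunum against 171 to 351 CPM in WT colon and 206 to 326 CPM in WT jejunum.

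RNA of tissues next to the muscle differed within the groups. Epcam, an adhesion molecule of all gut epithelium, stood at 153 (t1), 304 (t6) and 5.11 (t7) CPM in WT colon and 63.2 (t1), 28.9 (t6) and 72.8 (t7) CPM in WT jejunum. WT colon t1 and t6 also carried transcripts of absorptive cells of the small intestine. Lct, the lactase gene, measured 199, 132 and 1.56 CPM in WT colon (t1, t6, t7) against 114, 101 and 156 CPM in WT jejunum, and Apoa4, an apolipoprotein of absorptive cells, 486, 366 and 1.52 CPM in WT colon (t1, t6, t7) against 411, 232 and 377 CPM in WT jejunum. In both genes WT colon t1 and t6 lay within or above the jejunum range and WT colon t7 far below it. The summed level of the 15 epithelial markers common to both regions was 1625 (t1), 3494 (t6) and 162 (t7) CPM in WT colon and 752 (t1), 432 (t6) and 973 (t7) CPM in WT jejunum. Its means were 1760 ± 1670 CPM (SD, n = 3) in WT colon and 719 ± 272 CPM (SD, n = 3) in WT jejunum, and they did not separate the regions (two-sided exact permutation p = 0.4, the smallest possible being 0.1). Adipocyte markers were high in WT jejunum t1 and t6, with Adipoq, the adiponectin gene, at 13.4, 14.6 and 8.27 CPM in WT colon (t1, t6, t7) against 149, 113 and 14.9 CPM in WT jejunum. Plasma cell RNA was high in WT colon t6, where Igkc, an antibody light chain, stood at 1104 CPM against 415 (t1) and 101 (t7) CPM in the other colon libraries and 150 to 226 CPM in jejunum.

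**Figure D1:**
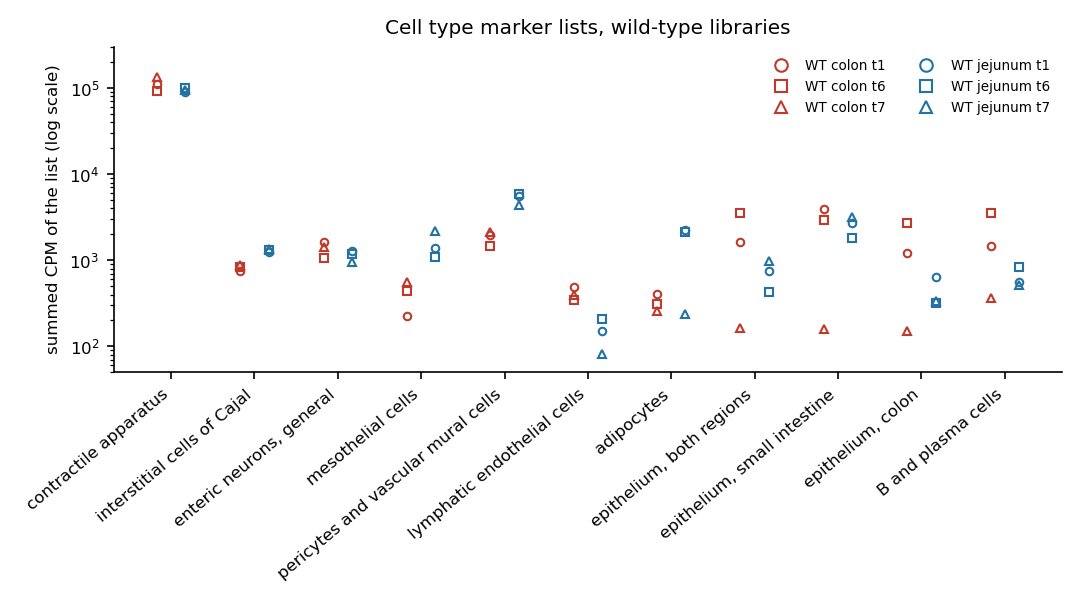
Summed CPM of 11 marker lists (log axis) in the 3 WT colon (red) and 3 WT jejunum (blue) libraries, 1 point a library. The epithelial lists spread over more than 10-fold within WT colon. The mesothelial, interstitial cell of Cajal, lymphatic endothelial and pericyte sums separate the regions with no overlap. Most of the pericyte sum in jejunum is the 1 gene Rgs5.

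Of 20886 genes tested, 325 (1.56%) passed an edgeR adjusted p of 0.05, 145 (0.694%) higher in WT colon and 180 (0.862%) higher in WT jejunum. At an unadjusted p under 0.05 there were 2744. Values written as a ± b against c ± d are means ± SD of WT colon against WT jejunum (n = 3 each), and fold changes are colon over jejunum. All 325 had 3 colon values on 1 side of 3 jejunum values, as did 4774 genes in all (22.9%). Of the 325, 287 differed over 2-fold, 161 over 4-fold and 46 over 16-fold. None is in the 3 epithelial lists, and 247 passed again in the same direction with the mean level of epithelial markers as a covariate. The count rested on single libraries: 79 genes passed without WT colon t1, 154 without WT colon t6, 81, 95 and 147 without WT jejunum t1, t6 or t7, and 557 without KO jejunum m1, and 58 of the 325 genes passed whichever of the 12 libraries was left out. Below, a value in brackets before "without" is the highest edgeR adjusted p of a gene over fits that each lacked 1 of the libraries named. With both epithelium-rich colon libraries (t1 and t6) left out, an alternative chosen after seeing the data, 39 genes passed, and all 325 kept their sign. Scaled by total counts alone, 58.7% of 269 calls were higher in colon, against 44.6% here. The fit to the 6 WT libraries alone called 904 genes (4.66%, of them 1.88% higher in colon and 2.78% higher in jejunum), the fit without KO jejunum m1 557 (2.57%, with 0.998% and 1.58%) and DESeq2 1160 (5.58%, with 2.9% and 2.69%).

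Hox genes led the comparison, and their direction mostly followed their place in the cluster. Of the 11 tested Hox genes of paralog groups 9 to 13 (called hind here), 8 passed the test, all higher in WT colon (0.694% of all genes), and all 11 were higher in every colon library than in every jejunum library (11.2% of all genes did so). Their median log2 fold change was 7.45, against 0.04 over all genes tested, and it is the same with Hoxa11, unread in jejunum, set to its lower bound. Most of these 11 genes had few or no reads in WT jejunum. They passed the filter on low counts through libraries where they were high, which favours such a count. The hind genes Hoxc9, Hoxc10, Hoxc11, Hoxc12 and Hoxc13 did not pass that filter, at no more than 0.262 CPM in any WT library. Of the 21 tested members of groups 1 to 8 (called front), 4 passed, all higher in WT jejunum (Hoxb8, Hoxc4, Hoxc5 and Hoxc6). In this front part 15 members were higher in every jejunum library and 1 (Hoxd4) in every colon library, with a median of -1.19. The tested front genes of the Hoxd cluster all leaned to colon by sign. Log2 fold changes were 0.46 for Hoxd3, 1.07 for Hoxd4 and 0.62 for Hoxd8, and none passed. Hoxa7 (0.15) also had a positive sign.

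The promoters of 3 genes are shown, chosen after their values and motifs were seen: Hoxd13 and its neighbour Evx2 had the highest fold changes among the called genes that the naming rule covers, and Hoxb8 is the called front gene whose window holds the motif described next. The window of Hoxc4, another called front gene, has no match. The called front genes Hoxc5 and Hoxc6 have no RefSeq window and could not be examined. The promoters shown are the 300 bases from 250 before to 50 after the RefSeq start in GRCm38.p6, 5′ to 3′ on the gene's strand. Capitals mark TTTATNG on either strand, a core that caudal (CDX) and posterior HOX proteins are known to bind. It occurs in 10.9% of 32851 promoter windows of this length.

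Hoxd13 (chr2:74667975-74668274, plus strand): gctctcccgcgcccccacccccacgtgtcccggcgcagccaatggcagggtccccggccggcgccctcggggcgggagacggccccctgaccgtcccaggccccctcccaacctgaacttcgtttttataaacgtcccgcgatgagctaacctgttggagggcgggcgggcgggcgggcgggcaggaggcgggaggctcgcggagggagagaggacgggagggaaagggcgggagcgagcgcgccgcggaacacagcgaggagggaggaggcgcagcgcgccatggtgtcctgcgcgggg
Evx2 (chr2:74659508-74659807, minus strand): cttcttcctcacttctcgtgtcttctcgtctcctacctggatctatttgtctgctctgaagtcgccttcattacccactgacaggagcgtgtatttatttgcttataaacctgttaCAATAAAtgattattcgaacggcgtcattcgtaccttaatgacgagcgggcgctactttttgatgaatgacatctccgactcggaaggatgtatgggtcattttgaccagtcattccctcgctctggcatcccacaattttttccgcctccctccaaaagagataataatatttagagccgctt
Hoxb8 (chr11:96281655-96281954, plus strand): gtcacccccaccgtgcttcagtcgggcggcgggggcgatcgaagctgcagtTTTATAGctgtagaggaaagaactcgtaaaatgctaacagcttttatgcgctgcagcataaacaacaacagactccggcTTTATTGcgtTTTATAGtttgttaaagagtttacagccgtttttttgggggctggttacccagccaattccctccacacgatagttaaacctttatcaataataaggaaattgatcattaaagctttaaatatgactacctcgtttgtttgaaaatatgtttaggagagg

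Hoxd13 has no match, Evx2 1 and Hoxb8 3, a number reached by 21 windows in all (0.0639%). Hoxd13 holds 37 CG dinucleotides and Evx2 16, against a median of 7 per window. The Hoxd13 window overlapped by at least 1 base an open chromatin region listed for the WT colon nuclei, and those of Evx2 and Hoxb8 did not. Among genes with a RefSeq window, 53.7% of the 108 higher in colon and 49.3% of the 138 higher in jejunum overlapped such a region, against 66.4% of 13545 tested genes. The share of open windows was thus lower among the called genes than among all. The motif was in 10.2%, 8.70% and 9.07% of the same groups. A match to these letters is a description of the window.

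Hoxd13, the last gene of the Hoxd cluster (chromosome 2, 74668310 to 74671599 in GRCm38), measured 119 (t1), 118 (t6) and 149 (t7) CPM in WT colon and 0.0737 (t1), 0 (t6) and 0.0533 (t7) CPM in WT jejunum. The 3 colon values were alike and the jejunum values at or near 0, with a log2 difference of 11.50 ± 2.03 (SE) at an edgeR adjusted p of 0.0233. Evx2, a homeobox gene beside Hoxd13, measured 21.8, 23.4 and 33.7 CPM in WT colon (t1, t6, t7) against 0, 0.0291 and 0 CPM in WT jejunum. A single read was counted for Evx2 in the 3 jejunum libraries together, and the ratio of summed counts was 2607 (95% counting interval 467 to 102995) at an edgeR adjusted p of 0.0127. Hoxd12 likewise had 1 read in jejunum and 12.2 to 18.3 CPM in colon, a ratio of 1457 (261 to 57583, edgeR adjusted p = 0.0238). The other called members of the hind groups were Hoxa9, Hoxa10, Hoxa13, Hoxd9, Hoxd10 and Hoxd11, with log2 fold changes from 3.88 (Hoxd9) to 7.84 (Hoxa13). Hoxa13 stood at 41.7 ± 5.8 against 0.189 ± 0.162 CPM (edgeR adjusted p = 0.0192) and Hoxa10 at 46.6 ± 8.35 against 0.263 ± 0.129 CPM (edgeR adjusted p = 0.0249).

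The other 3 hind members did not pass. Hoxa11 had 6.83 to 8.65 CPM in colon and no read in jejunum, at least 256-fold higher against 3 counts over the jejunum libraries, yet its edgeR adjusted p was 0.12. Its antisense gene Hoxa11os passed (6.21 to 7.34 CPM against no read, at least 228-fold, edgeR adjusted p = 0.017). Hoxa11 and Hoxa11os overlap, and reads of the 2 cannot be told apart where the use of strand is unknown. The same holds for other called genes that overlap an annotated neighbour: Hoxa9, Hoxc5, Hoxd10, Hoxd11, Pitx1, Grm8, Tes, Irx3, Hspb6, Cacna1d, P2ry1, Nefl, Penk, Myh2, Nid2, Ltbp2, Mfap4, Wnt5a, Sfrp2, Tgfb2, Rarb and Igf2. Hoxb13 varied within the colon, at 17.4, 56.7 and 1.09 CPM in WT colon (t1, t6, t7) against 0.773, 0.0291 and 0.0533 CPM in WT jejunum, so that WT colon t7 lay near the highest jejunum value (edgeR adjusted p = 0.0794). Hoxb13 was high in the 2 epithelium-rich colon libraries and low in the third, and the part of epithelium in it was not tested. Hoxb9, at 4.9 ± 1.45 against 1.0 ± 0.268 CPM, had an edgeR adjusted p of 0.159.

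Among the front members, Hoxc5 had the smallest adjusted p of all genes. It measured 0.618 (t1), 0.714 (t6) and 0.78 (t7) CPM in WT colon and 23.3 (t1), 31.5 (t6) and 23.9 (t7) CPM in WT jejunum, a log2 difference of -5.21 ± 0.34 (SE) at an edgeR adjusted p of 0.000109. Hoxc6 measured 0.896, 0.714 and 1.17 CPM in WT colon (t1, t6, t7) against 23.5, 19.9 and 28.2 CPM in WT jejunum (log2 fold change -4.69, edgeR adjusted p = 0.00364). In both genes the jejunum libraries were alike and far above every colon library. Hoxc4 (4.55 ± 1.46 against 27.5 ± 3.11 CPM, edgeR adjusted p = 0.0128) and Hoxb8 (4.46 ± 1.37 against 22.2 ± 7.25 CPM, edgeR adjusted p = 0.00444) differed less, with log2 fold changes of -2.59 and -2.32. Hoxc5 overlaps Hoxc10 in the annotation. Hoxc10 itself was counted at 0 CPM in each WT jejunum library and at 0.0275 to 0.039 CPM in WT colon. Whether the count of Hoxc5 holds reads of its neighbour was not tested. Levels of Hoxa5, Hoxa6, Hoxa7, Hoxb3, Hoxb4, Hoxb5, Hoxd3 and Hoxd8 differed by less than 0.8 on the log2 scale and none passed.

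**Figure D2:**
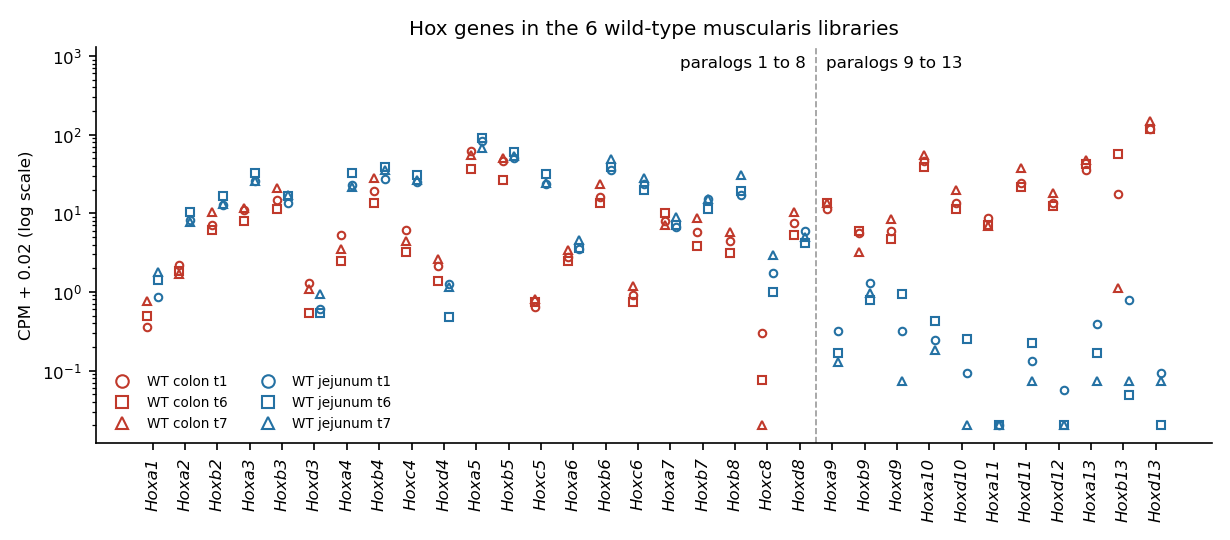
CPM + 0.02 (log axis) of the 32 tested Hox genes, ordered by paralog group, in WT colon (red) and WT jejunum (blue), 1 point a library. All 11 tested genes of groups 9 to 13 are higher in each colon library, and 15 of the 21 tested genes of groups 1 to 8 are higher in each jejunum library.

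The Hox calls depended on a library outside the comparison. KO jejunum m1 held the 11 hind genes at 15.2% of the WT colon mean of their summed CPM, against 0.452% to 1.07% in WT jejunum and 1.09% and 2.30% in the other jejunum libraries labelled KO. Without it, 9 hind and 8 front members passed. The fit to the 6 WT libraries gave the same counts, but Hoxd9 passed only in the former and Hoxb9 only in the latter of these 2 fits. The calls of the hind members ended when single libraries were left out, each on its own. Hoxd13 (0.111), Hoxd12 (0.129) and Hoxa10 (0.125) missed the threshold without WT colon t1, WT colon t6 or any 1 WT jejunum library and Evx2 (0.0864) without any 1 WT jejunum library. Hoxa13 (0.0973), Hoxa9 (0.0864) and Hoxa11os (0.0693) missed the threshold without WT colon t1 or any 1 WT jejunum library and Hoxd9 (0.142) without any 1 WT colon library or WT jejunum t1. Hoxd10 (0.21) and Hoxd11 (0.188) missed the threshold without any 1 WT library, KO colon m1, KO colon t4 or KO colon t6. The 4 front genes higher in jejunum passed in all 12 leave-outs.

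Of the 44 other patterning transcription factors tested, 1 passed higher in colon and 2 higher in jejunum (0.694% and 0.862% of all genes). The called homeobox gene Evx2 is outside this list. Pitx1, known for specifying the hindlimb and pituitary, measured 138 (t1), 91.6 (t6) and 164 (t7) CPM in WT colon and 0.368 (t1), 0.32 (t6) and 0.48 (t7) CPM in WT jejunum, a log2 difference of 8.37 ± 1.47 (SE) at an edgeR adjusted p of 0.023. The groups lay far apart, and the jejunum held only traces. Irx3 and Irx5, neighbouring Iroquois homeobox genes, went the other way together. Irx5 stood at 0.101 ± 0.0582 against 6.42 ± 1.19 CPM (log2 fold change -5.90, edgeR adjusted p = 0.00444) and Irx3 at 0.228 ± 0.171 against 7.7 ± 1.11 CPM (log2 fold change -5.02, edgeR adjusted p = 0.00774). Both passed in all 12 leave-outs. Pitx1 (0.112) missed the threshold without WT colon t1 or any 1 WT jejunum library. Among members named after their values were seen, Tbx5, a T-box factor, had 2.10 to 3.75 CPM in WT colon and no read in WT jejunum, at least 88.0-fold higher against 3 counts over the jejunum libraries, and did not pass (edgeR adjusted p = 0.15). Cdx1, a caudal homeobox gene of intestinal epithelium, followed the epithelium-rich libraries at 28.8, 74.3 and 0.624 CPM in WT colon (t1, t6, t7) against 1.95, 1.19 and 5.04 CPM in WT jejunum (edgeR adjusted p = 0.204).

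**Figure D3:**
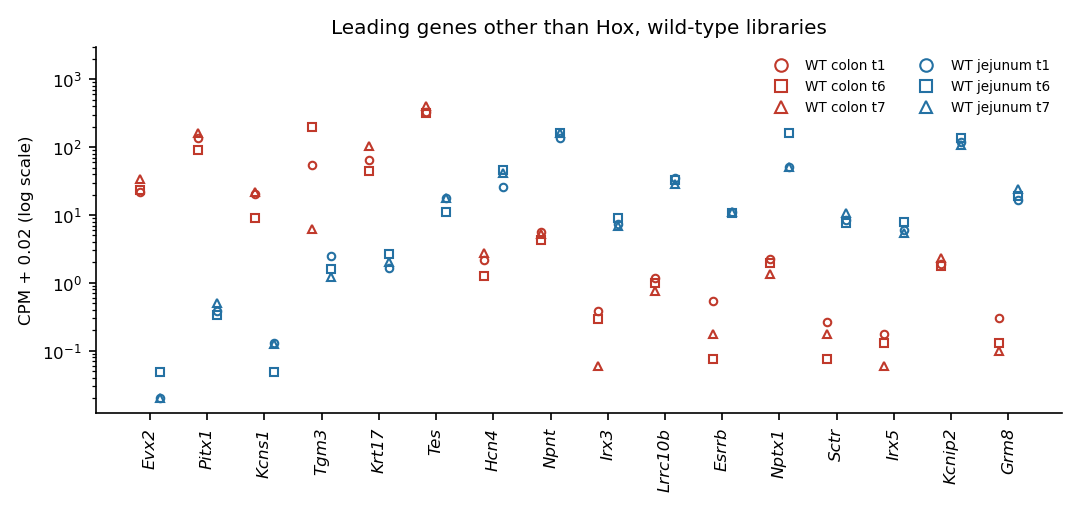
CPM + 0.02 (log axis) of the 16 genes other than Hox with the most extreme fold changes by the naming rule, in WT colon (red) and WT jejunum (blue), 1 point a library. No gene overlaps between the regions, and Tgm3 spreads most within WT colon.

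The rule also named protein-coding genes with no shared pathway. Kcns1, a modulatory subunit of voltage-gated potassium channels, measured 20.1, 8.9 and 22.1 CPM in WT colon (t1, t6, t7) against 0.11, 0.0291 and 0.107 CPM in WT jejunum and passed in all 12 leave-outs (log2 fold change 7.65, edgeR adjusted p = 0.00623). Tes, an adhesion protein with LIM domains, stood at 353 ± 50.4 against 15.7 ± 4.11 CPM (edgeR adjusted p = 0.0103), and Krt17, an intermediate filament keratin, at 71.1 ± 30.1 against 2.09 ± 0.489 CPM (edgeR adjusted p = 0.0118). Tgm3, a transglutaminase of surface epithelia, followed the epithelium-rich libraries, with 54.6, 198 and 6.24 CPM in WT colon (t1, t6, t7) against 2.5, 1.6 and 1.2 CPM in WT jejunum. It passed in the main comparison (edgeR adjusted p = 0.0393) and with the epithelial covariate, and the part of epithelial RNA in its level was not tested. Tes (0.0637) missed the threshold without WT jejunum t1 or WT jejunum t6 and Krt17 (0.0807) without any 1 WT jejunum library. Tgm3 (0.163) missed the threshold without WT colon t1, WT colon t6, any 1 WT jejunum library, KO colon m1, KO colon t4, KO colon t6 or KO jejunum t1.

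In the jejunum, the leading genes outside the Hox clusters included receptors and channels. Grm8, a metabotropic glutamate receptor that couples to inhibitory G proteins, measured 0.278 (t1), 0.11 (t6) and 0.078 (t7) CPM in WT colon and 16.7 (t1), 19 (t6) and 24.2 (t7) CPM in WT jejunum, a log2 difference of -6.95 ± 0.97 (SE) at an edgeR adjusted p of 0.00838. Sctr, the secretin receptor, stood at 0.153 ± 0.0962 against 8.88 ± 1.48 CPM (log2 fold change -5.84, edgeR adjusted p = 0.000687). Npnt, the integrin ligand nephronectin, stood at 5.01 ± 0.727 against 152 ± 15.2 CPM (log2 fold change -4.93, edgeR adjusted p = 0.000325). Kcnip2, an accessory subunit of Kv4 potassium channels, was at 1.98 ± 0.312 against 121 ± 14.8 CPM (edgeR adjusted p = 0.0189). Hcn4, a pacemaker channel opened by hyperpolarisation, was at 2.04 ± 0.755 against 37.9 ± 10.4 CPM (edgeR adjusted p = 0.0281). Nptx1, a neuronal pentraxin, measured 2.26, 1.92 and 1.33 CPM in WT colon (t1, t6, t7) against 50.8, 160 and 51.6 CPM in WT jejunum, with jejunum t6 about 3 times the other 2, and was higher than every colon value throughout. Esrrb, an orphan nuclear receptor, and Lrrc10b completed the set, at log2 fold changes of -5.46 and -5.06 (edgeR adjusted p of 0.00774 and 0.000325). Kcnip2 (0.109) missed the threshold without any 1 WT colon library, WT jejunum t1 or WT jejunum t6 and Hcn4 (0.131) without any 1 WT library.

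Of 32 contractile apparatus genes tested, 1 passed higher in colon and 1 higher in jejunum, with a median log2 fold change of 0.15. The share called was 6.25%, against 1.56% of all genes. In this list 8 genes were higher in each colon library and 3 in each jejunum library (11.2% and 11.7% over all genes). Hspb6, a small heat shock protein of relaxing muscle, measured 163, 156 and 212 CPM in WT colon (t1, t6, t7) against 480, 469 and 412 CPM in WT jejunum (log2 fold change -1.36, edgeR adjusted p = 0.0481). Myh11 did not pass (15988 ± 3296 against 15042 ± 1320 CPM, edgeR adjusted p = 0.966). Actg2, the enteric actin, was higher in each colon library (6311, 4910 and 6961 CPM against 3433, 2735 and 3315 CPM) but did not pass (edgeR adjusted p = 0.418). Hspb6 (0.187) missed the threshold without any 1 WT library, KO colon m1, KO colon t6 or KO jejunum t1.

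Genes of the calcium store and of calcium entry moved in both directions. Of 28 tested, 2 passed higher in colon and 3 higher in jejunum (0.694% and 0.862% of all genes). In this list 12 genes were higher in each jejunum library and 3 in each colon library (11.7% and 11.2% of all genes). Casq2, which buffers calcium inside the sarcoplasmic reticulum, measured 29.6 (t1), 27.6 (t6) and 31.6 (t7) CPM in WT colon and 120 (t1), 76.1 (t6) and 95.8 (t7) CPM in WT jejunum, a log2 difference of -1.72 ± 0.26 (SE) at an edgeR adjusted p of 0.00938. The receptor-operated cation channel Trpc6 (4.33 ± 1.29 against 17.3 ± 1.61 CPM, edgeR adjusted p = 0.0116) was also higher in jejunum. Cacna1d, the pore of the Cav1.3 calcium channel, was higher in colon, at 72.4, 55.9 and 97.1 CPM in WT colon (t1, t6, t7) against 24.6, 29.5 and 31.5 CPM in WT jejunum (log2 fold change 1.40, edgeR adjusted p = 0.00838). Sln, sarcolipin, an inhibitor of the calcium pump, was read at 0.165 to 0.772 CPM in colon and not at all in jejunum, at least 14.4-fold higher against 3 counts over the jejunum libraries. Casq2 and Trpc6 passed in all leave-outs. Cacna1d (0.0637) missed the threshold without WT jejunum t1 and Sln (0.0958) without WT colon t1 or any 1 WT jejunum library.

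Of 27 potassium channel genes in the list, 1 passed (3.70%, against 1.56% of all genes). The called channel subunit genes Kcns1 and Kcnip2, given above, are outside this list. Kcnmb2, an auxiliary subunit of the large-conductance calcium-activated channel, measured 0, 0.055 and 0.234 CPM in WT colon (t1, t6, t7) against 4.16, 4.98 and 3.73 CPM in WT jejunum (log2 fold change -5.52, edgeR adjusted p = 0.0369). In this list 10 genes were higher in each jejunum library and 2 in each colon library (11.7% and 11.2% over all genes). Kcnmb2 (0.14) missed the threshold without WT colon t1, WT colon t6, any 1 WT jejunum library or KO jejunum t1.

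Receptors for transmitters and hormones gave 5 genes higher in colon and 4 higher in jejunum of 68 tested, with a median of -0.02. The share called was 13.2%, against 1.56% of all genes. The called receptors Grm8 and Sctr, given above, and Glp2r and Npy4r, given below, are outside this list. The 3 purine receptors that passed were all higher in colon. P2ry1, the receptor through which purines released by nerves relax gut muscle, measured 60.9 (t1), 49.4 (t6) and 63.4 (t7) CPM in WT colon and 17.1 (t1), 21 (t6) and 16.7 (t7) CPM in WT jejunum, a log2 difference of 1.66 ± 0.30 (SE) at an edgeR adjusted p of 0.022. The ATP-gated channels P2rx5 (7.09 ± 3.5 against 1.03 ± 0.295 CPM) and P2rx4 (40.5 ± 5.1 against 22.5 ± 4.4 CPM) passed with edgeR adjusted p of 0.0124 and 0.0296. Lpar1, a lysophosphatidic acid receptor, measured 131, 135 and 147 CPM against 43.7, 43.8 and 41.5 CPM for colon against jejunum, passed in all leave-outs and had little spread (log2 fold change 1.68, edgeR adjusted p = 0.00623). Sstr2, a somatostatin receptor, was the fifth (8.45 ± 1.48 against 1.67 ± 0.395 CPM, edgeR adjusted p = 0.036). On the jejunum side were Pgr, the progesterone receptor (2.99 ± 0.414 against 28.5 ± 2.28 CPM, edgeR adjusted p = 0.0144), and Gucy1b1, a subunit of the nitric oxide receptor (62.4 ± 3.23 against 133 ± 7.08 CPM, edgeR adjusted p = 0.0195). Ednrb, an endothelin receptor (25.9 ± 1.5 against 57.4 ± 15.6 CPM, edgeR adjusted p = 0.034), and Nmur1, a neuromedin U receptor (0.313 ± 0.0843 against 2.45 ± 1.07 CPM, edgeR adjusted p = 0.0319), were the others. P2ry1 (0.112) missed the threshold without WT colon t1, WT colon t7 or any 1 WT jejunum library and P2rx5 (0.0603) without any 1 WT jejunum library. P2rx4 (0.138) missed the threshold without any 1 WT library, KO colon t6, KO jejunum t1 or KO jejunum t4 and Sstr2 (0.157) without any 1 WT library or KO colon m1. Pgr (0.0697) missed the threshold without WT colon t1, WT colon t6 or WT jejunum t1 and Gucy1b1 (0.0702) without WT colon t1, WT colon t6, WT jejunum t1 or WT jejunum t6. Ednrb (0.126) missed the threshold without any 1 WT colon library, WT jejunum t1, WT jejunum t6 or KO colon m1 and Nmur1 (0.125) without any 1 WT library.

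Of 11 markers of interstitial cells of Cajal, 2 passed, both higher in jejunum (0.862% over all genes), and 6 were higher in each jejunum library (11.7% over all genes). Gja1, the gap junction protein connexin 43, measured 101, 115 and 128 CPM in WT colon (t1, t6, t7) against 312, 380 and 295 CPM in WT jejunum (log2 fold change -1.53, edgeR adjusted p = 0.00719). Prkcq, a protein kinase C typical of these cells, measured 8.4, 7.42 and 12.4 CPM in WT colon (t1, t6, t7) against 55.6, 53.6 and 49.4 CPM in WT jejunum (log2 fold change -2.49, edgeR adjusted p = 0.0199). Kit, their defining receptor, stood at 144 ± 29.9 against 140 ± 3.88 CPM and did not pass (edgeR adjusted p = 0.986). The summed level of the list was 752 (t1), 839 (t6) and 873 (t7) CPM in WT colon and 1264 (t1), 1313 (t6) and 1344 (t7) CPM in WT jejunum. Among 11 markers of Pdgfra-positive interstitial cells, Fbln1, fibulin 1 (337 ± 74.3 against 104 ± 20.4 CPM, edgeR adjusted p = 0.00774), and Cpa6, a carboxypeptidase (14.6 ± 3.43 against 0.897 ± 0.232 CPM, edgeR adjusted p = 0.00947), were higher in colon and Adamtsl3 (48.3 ± 5.13 against 184 ± 15.1 CPM, edgeR adjusted p = 0.0454) higher in jejunum. Gja1 and Fbln1 passed in all leave-outs. Prkcq (0.0985) missed the threshold without WT colon t1, WT colon t6, WT jejunum t1 or WT jejunum t6 and Cpa6 (0.0637) without WT jejunum t1 or WT jejunum t6. Adamtsl3 (0.165) missed the threshold without any 1 WT library, KO colon t6 or KO jejunum t1.

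Of 33 genes of enteric transmitters and neuropeptides 3 passed higher in colon and 0 higher in jejunum by edgeR (7 and 2 by DESeq2), 12 had an unadjusted p under 0.05, and the median was 0.49. Of all genes, 0.694% passed higher in colon and 0.862% higher in jejunum by edgeR. Dbh, which makes noradrenaline, measured 50.4 (t1), 30.1 (t6) and 41 (t7) CPM in WT colon and 7.92 (t1), 6.58 (t6) and 4.74 (t7) CPM in WT jejunum, a log2 difference of 2.66 ± 0.38 (SE) at an edgeR adjusted p of 0.00774. Sst, somatostatin, stood at 70.2 ± 12 against 11.7 ± 3.75 CPM and Penk, proenkephalin, at 132 ± 19.2 against 29 ± 7.73 CPM, with edgeR adjusted p of 0.0169 and 0.0249. Their colon values were 3 or more times the jejunum values in every pair of libraries. General neuronal genes had a median of 0.30, and all 18 had a higher colon value by sign, against 23 of the 33 transmitter genes. Nefl, a neurofilament, was the 1 that passed, at 21.5 ± 4.32 against 5.82 ± 0.406 CPM (log2 fold change 1.88, edgeR adjusted p = 0.0168), and Elavl4 did not (38.2 ± 3.68 against 31.3 ± 9.16 CPM). None of 13 glial genes passed, the smallest edgeR adjusted p being that of Entpd2 (0.0685). Of the glial genes 5 had an unadjusted p under 0.05, DESeq2 called 1, and edgeR called 2 in the 6 WT libraries alone. Dbh passed in all leave-outs. Sst (0.081) and Nefl (0.0844) missed the threshold without WT colon t1 or any 1 WT jejunum library and Penk (0.111) without any 1 WT library.

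Wnt signalling genes passed in both directions. Of 31 tested, 2 passed higher in colon, both secreted antagonists of the frizzled-related family, and 4 passed higher in jejunum (0.694% and 0.862% of all genes). Frzb measured 50.5 (t1), 30.8 (t6) and 34.2 (t7) CPM in WT colon and 5.16 (t1), 6.58 (t6) and 4.58 (t7) CPM in WT jejunum, a log2 difference of 2.82 ± 0.35 (SE) at an edgeR adjusted p of 0.00444. Sfrp2 stood at 41.7 ± 7.05 against 14.7 ± 2.77 CPM (edgeR adjusted p = 0.0301). On the jejunum side, Wnt5a, a non-canonical ligand, measured 46.7, 51.7 and 68 CPM in WT colon (t1, t6, t7) against 213, 191 and 276 CPM in WT jejunum (log2 fold change -2.03, edgeR adjusted p = 0.0161). Rspo1, a ligand that sustains Wnt receptors, measured 24.2, 38.7 and 55.9 CPM in WT colon (t1, t6, t7) against 153, 135 and 220 CPM in WT jejunum (log2 fold change -2.10, edgeR adjusted p = 0.0242). The modulator Dkk2 (4.85 ± 1.2 against 20.5 ± 3.11 CPM, edgeR adjusted p = 0.00838) and the receptor Fzd1 (80.5 ± 6.55 against 165 ± 28.5 CPM, edgeR adjusted p = 0.0316) were the others. In the list 15 genes were higher in each jejunum library and 5 in each colon library (11.7% and 11.2% over all genes). Frzb and Dkk2 passed in all leave-outs. Wnt5a (0.0844) missed the threshold without WT colon t1, WT colon t6 or WT jejunum t1 and Rspo1 (0.0958) without WT colon t1, WT colon t6 or any 1 WT jejunum library. Sfrp2 (0.155) and Fzd1 (0.133) missed the threshold without any 1 WT library.

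Other signalling lists gave 0 to 2 calls each, while 1.56% of all genes passed. Tgfb2 (96.1 ± 38.6 against 37 ± 2.15 CPM, edgeR adjusted p = 0.0485), a TGF-beta ligand, was the 1 of 32 BMP and TGF-beta genes that passed. In the retinoic acid list Rarb, a receptor (20.7 ± 2.48 against 12.3 ± 0.764 CPM, edgeR adjusted p = 0.036), was higher in colon and Aldh1a2, which makes the ligand (43 ± 19.1 against 186 ± 62.7 CPM, edgeR adjusted p = 0.0446), higher in jejunum. Igf2, a growth factor (12.2 ± 2.08 against 37.8 ± 9.47 CPM, edgeR adjusted p = 0.0352), was higher in jejunum. Of the axon guidance cues Sema3a, a repellent (101 ± 4.96 against 38.7 ± 1.52 CPM, edgeR adjusted p = 0.0292), was higher in colon and Slit2, another repellent (45.4 ± 8.25 against 138 ± 19.2 CPM, edgeR adjusted p = 0.0124), higher in jejunum. None of 12 hedgehog genes passed by edgeR, with 3 at an unadjusted p under 0.05 and 1 called by DESeq2, and Gli1, a target of the pathway, had an edgeR adjusted p of 0.133 (12.7 ± 2.52 against 38.3 ± 16.6 CPM). Tgfb2 (0.208) missed the threshold without WT colon t1, WT colon t7, any 1 WT jejunum library, KO colon m1, KO colon t6, KO jejunum m1, KO jejunum t1 or KO jejunum t4 and Rarb (0.249) without any 1 WT library, KO colon m1, KO colon t6, KO jejunum t1 or KO jejunum t4. Aldh1a2 (0.131) missed the threshold without any 1 WT library, KO colon m1, KO jejunum t1 or KO jejunum t4 and Igf2 (0.115) and Sema3a (0.131) without any 1 WT library. Slit2 (0.0601) missed the threshold without WT colon t1.

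Matrix genes passed in both directions, while both lists leaned to colon by sign. Of 36 collagen and basement membrane genes 28 had a higher colon value by sign. In each colon library 12 were higher and in each jejunum library 5 (11.2% and 11.7% over all genes). Passing higher in colon were 2, Col16a1 (269 ± 96.7 against 71 ± 6.81 CPM, edgeR adjusted p = 0.0247) and Col4a5 (99.7 ± 26.6 against 33 ± 6.67 CPM, edgeR adjusted p = 0.0181). Passing higher in jejunum were 2, Col8a2 and Nid2. The share called was 11.1%, against 1.56% of all genes. Col8a2, a short-chain collagen, measured 18.7, 21.7 and 33.8 CPM in WT colon (t1, t6, t7) against 107, 150 and 102 CPM in WT jejunum (log2 fold change -2.28, edgeR adjusted p = 0.00444), and Nid2, a basement membrane linker, stood at 24 ± 5.67 against 50.9 ± 13.3 CPM (edgeR adjusted p = 0.0414). Of 37 elastic fibre and matricellular genes, 29 had a higher colon value by sign, 11 were higher in each colon library and 4 in each jejunum library. Fbln1 and Mfap4 (75.6 ± 9.08 against 18.6 ± 6.76 CPM, edgeR adjusted p = 0.0391) passed higher in colon, and Ltbp2 and Efemp1 higher in jejunum (10.8% called). Ltbp2, a microfibril protein, measured 11.4, 13.8 and 16.3 CPM in WT colon (t1, t6, t7) against 80.6, 131 and 110 CPM in WT jejunum (log2 fold change -2.96, edgeR adjusted p = 0.0172). Efemp1, fibulin 3, measured 50.4, 66.2 and 88.3 CPM in WT colon (t1, t6, t7) against 217, 141 and 243 CPM in WT jejunum (log2 fold change -1.55, edgeR adjusted p = 0.034). Col8a2 passed in all leave-outs. Col16a1 (0.129) missed the threshold without WT colon t1, WT colon t7 or any 1 WT jejunum library and Col4a5 (0.109) without WT colon t1, WT colon t7, WT jejunum t1 or WT jejunum t6. Nid2 (0.161) missed the threshold without WT colon t1, WT colon t6, any 1 WT jejunum library or KO colon m1 and Mfap4 (0.141) without any 1 WT library, KO colon m1, KO colon t6 or KO jejunum t1. Ltbp2 (0.0985) missed the threshold without WT colon t1, WT colon t6 or WT jejunum t6 and Efemp1 (0.136) without WT colon t1, WT colon t6, WT jejunum t1 or WT jejunum t7.

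Mesothelial markers were higher in jejunum and lymphatic markers leaned to colon, whereas other vessel markers mostly overlapped. The summed level of the mesothelial list was 226 (t1), 434 (t6) and 565 (t7) CPM in WT colon and 1402 (t1), 1079 (t6) and 2196 (t7) CPM in WT jejunum. Of its 9 tested genes all were lower in colon by sign, 8 without overlap (11.7% over all genes), and all 9 had an unadjusted p under 0.05. Gpm6a, a membrane glycoprotein, was the 1 that passed by edgeR, at 20.7, 51 and 47.7 CPM in WT colon (t1, t6, t7) against 203, 118 and 277 CPM in WT jejunum (log2 fold change -2.33, edgeR adjusted p = 0.0227), while DESeq2 called 8 of the list. The median of the list was -1.99. Lymphatic endothelial genes leaned to colon, with 5 of 7 higher in each colon library (11.2% over all genes), a median of 1.85 and 5 called by DESeq2. Flt4, the receptor for lymphatic growth factors, passed by edgeR at 108, 66.3 and 90.8 CPM in WT colon (t1, t6, t7) against 21.7, 36.6 and 10.6 CPM in WT jejunum (log2 fold change 1.94, edgeR adjusted p = 0.0301). In the pericyte list, Rgs5, a regulator of G protein signalling, measured 734, 639 and 702 CPM in WT colon (t1, t6, t7) against 4149, 4415 and 3032 CPM in WT jejunum (log2 fold change -2.48, edgeR adjusted p = 0.0301), while the list's median was 0.05 and no other member passed. None of 10 blood endothelial genes passed or had an unadjusted p under 0.05, and DESeq2 called 0. Gpm6a (0.0756) missed the threshold without WT colon t1, WT jejunum t1 or WT jejunum t7 and Flt4 (0.145) without any 1 WT colon library, WT jejunum t1 or WT jejunum t7. Rgs5 (0.124) missed the threshold without any 1 WT library.

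Among the lists of other tissues, the skeletal muscle list of 9 genes held 2 calls, both higher in colon (0.694% of all genes). The list as a whole was mixed. In it 4 genes were higher in each colon library and 2 in each jejunum library (11.2% and 11.7% over all genes). DESeq2 called 2 in each direction. The summed level was 96.6, 80.7 and 120 CPM in WT colon (t1, t6, t7) and 131, 147 and 137 CPM in WT jejunum. Myh2, a fast skeletal myosin, measured 25.9, 12.9 and 32.7 CPM in WT colon (t1, t6, t7) against 0.958, 0.408 and 0.719 CPM in WT jejunum (log2 fold change 5.10, edgeR adjusted p = 0.0168), and Tnnt3, a fast troponin, stood at 3.74 ± 1.41 against 0.73 ± 0.134 CPM (edgeR adjusted p = 0.029). No macrophage, MHC class II, lymphocyte, plasma cell, mast cell, adipocyte, acinar or epithelial gene passed the edgeR test, and neither did immediate early, glucocorticoid-responsive or mitochondrially encoded genes. Of the epithelial genes 5 of 15 (both regions), 0 of 24 (small intestine) and 13 of 19 (colon) had an unadjusted p under 0.05, and DESeq2 called 1, 0 and 6. In each of the other lists named here 1 to 4 genes did, and DESeq2 called 0 to 2. Among them 7 of 8 MHC class II genes were higher in each colon library, and 10 of 13 mitochondrially encoded genes in each jejunum library, with medians of 1.25 and -0.75 (over all genes 11.2% and 11.7% did so). For the epithelial genes the medians were 1.57 (both regions), -0.13 (small intestine) and 2.55 (colon), and they became -2.48, -6.61 and -0.38 with WT colon t7 as the only WT colon library. Myh2 (0.0864) missed the threshold without WT colon t1 or any 1 WT jejunum library and Tnnt3 (0.13) without WT colon t6, WT colon t7 or any 1 WT jejunum library.

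The WT colon nuclei, 1 library with no replicate, showed in which nuclei these genes were read. Of 3476 barcodes 2672 had at least 500 UMIs (median 1690). Nuclei were placed in the class whose list had the largest share of its markers detected. A class is thus a range of marker content and not a type. There were 921 smooth muscle-like, 354 enteric glia-like, 319 mesothelial-like, 155 epithelium-like, 67 enteric neuron-like, 63 interstitial cell of Cajal-like, 36 Pdgfra interstitial-like and 31 lymphatic endothelial-like nuclei, and 685 stayed unassigned. At the minimum of 3 markers lay 1 of the smooth muscle-like, 58 of the mesothelial-like, 75 of the enteric glia-like, 13 of the interstitial cell of Cajal-like and 28 of the Pdgfra interstitial-like nuclei. Smooth muscle genes were read in other classes too: the median mesothelial-like nucleus held 4 of the 32 contractile markers and the median neuron-like nucleus 6, beside 5 and 9 of their own. The deposited gene values were all even and were halved before use. Doublets were not called, so nuclei with markers of several classes are among those assigned.

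Hind Hox genes were read in muscle and interstitial nuclei and at or near 0 in neuron-like and glia-like nuclei. Hoxa10 had 69.0 UMI CPM, the UMIs of a gene scaled by all UMIs of a class (95% counting interval 59.2 to 80.1) in smooth muscle-like nuclei and 121 (66.0 to 203) in interstitial cell of Cajal-like nuclei, against 0 of 526608 UMIs in neuron-like nuclei, which allows up to 7.01 UMI CPM. Hoxd11 gave 44.0 and 172 UMI CPM in the first 2 and 0 in glia-like and neuron-like nuclei. Pitx1 was read in smooth muscle-like nuclei alone among the named classes (15.1 UMI CPM) and in unassigned nuclei, although 0 UMIs in the small interstitial cell of Cajal-like class allow up to 31.8 UMI CPM. Cacna1d was highest in interstitial cell of Cajal-like nuclei (2630 UMI CPM, 276 in smooth muscle-like nuclei), Lpar1 and Tgfb2 in glia-like nuclei (1560 and 786), and Sema3a in smooth muscle-like nuclei (1879).

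Several genes that were higher in jejunum muscularis were held, within the colon, by mesothelial-like nuclei. Aldh1a2 had 875 UMI CPM there against 33.3 in smooth muscle-like nuclei, Efemp1 910 against 69.0, Wnt5a 524 against 15.9 and Rspo1 349 against 7.14. The front genes Hoxc6 (96.5 against 3.17) and Hoxc5 (43.7 against 8.33) followed the same order. Of the 141 jejunum-higher genes with at least 20 UMIs and outside the marker lists, 47 (33.3%) were highest in mesothelial-like nuclei, against 7 of 113 (6.19%) colon-higher genes and 14.4% of 12997 tested genes. Highest in smooth muscle-like nuclei were 16.3%, 21.2% and 5.71%. The mesothelial list moved with the region in bulk, and its part in the levels of Aldh1a2, Efemp1, Wnt5a, Rspo1, Hoxc5 and Hoxc6 was not tested. Other jejunum-higher genes were highest elsewhere: Dkk2 in interstitial cell of Cajal-like nuclei (698 UMI CPM), Slit2 in neuron-like nuclei (1145) and Grm8 in smooth muscle-like nuclei (210). UMI CPM and bulk CPM are not on 1 scale, and genes differed between them in both directions. Grm8 stood at only 0.155 ± 0.107 CPM (SD, n = 3) in bulk WT colon, with 15 reads in all. Pitx1 stood at 131 ± 36.8 CPM (SD, n = 3) there, above its UMI CPM. The reason for these gaps was not tested, and the class of nuclei that holds a gene need not account for its bulk level.

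**Figure D4:**
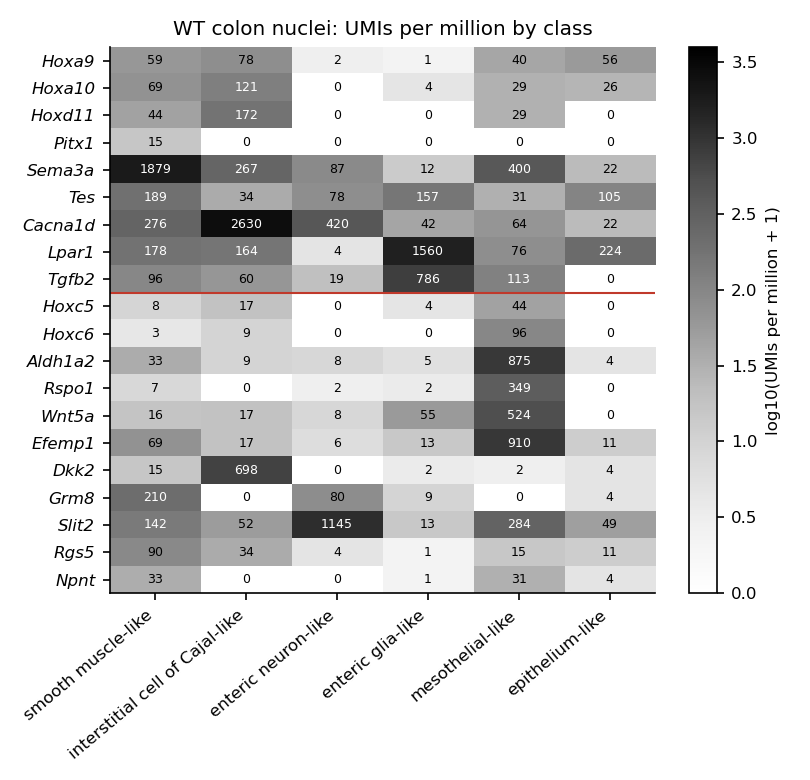
UMI CPM of 20 called genes (rows; 9 higher in WT colon above the line and 11 higher in WT jejunum below it) in 6 classes of WT colon nuclei (columns), shaded on a log10 scale. Aldh1a2, Efemp1, Wnt5a and Rspo1 are highest in mesothelial-like nuclei, and Sema3a in smooth muscle-like nuclei.

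In the libraries labelled KO most of the called genes changed in the same direction. Of the 325 genes, 312 had the same sign between KO colon and KO jejunum, 109 passed there in the same direction and 0 in the other, while 270 of all genes (1.29%) passed (0.46% higher in colon, 0.833% higher in jejunum). In 245 of the 325 the 3 colon and 3 jejunum values labelled KO did not overlap in the same direction, and 19.6% of all genes did not overlap in either direction. The change was smaller in size in the libraries labelled KO for 275 of 325 genes. Medians there were 1.18 against 2.07 in WT for genes higher in colon and -1.36 against -1.92 for genes higher in jejunum. These sizes include KO jejunum m1, and sizes without it are not given here. Pitx1 stood at 18.7 CPM in m1 against 0.714 and 0.272 CPM in KO jejunum t1 and t4, and Kcnip2 at 3.15 against 94.7 and 74 CPM. In both genes m1 was shifted towards the KO colon values, and for Hoxc6 (39 against 19.2 and 27 CPM) it was not. The part of m1 in the smaller sizes was not tested. The 325 were selected on the WT contrast, in a fit whose spread and filter also used the libraries labelled KO. Those libraries are thus not independent of the selection, and the counts and sizes here are a description. Log2 fold changes in the libraries labelled KO were -4.12 for Hoxc5, -5.79 for Hoxc6, -5.73 for Npnt and -4.51 for Sctr, against -5.21, -4.69, -4.93 and -5.84 in WT. Krt17 (0.14) lay near 0 in the libraries labelled KO. Hoxd13 stood at 4.52 there, with KO jejunum m1 at 14.5 CPM.

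**Figure D5:**
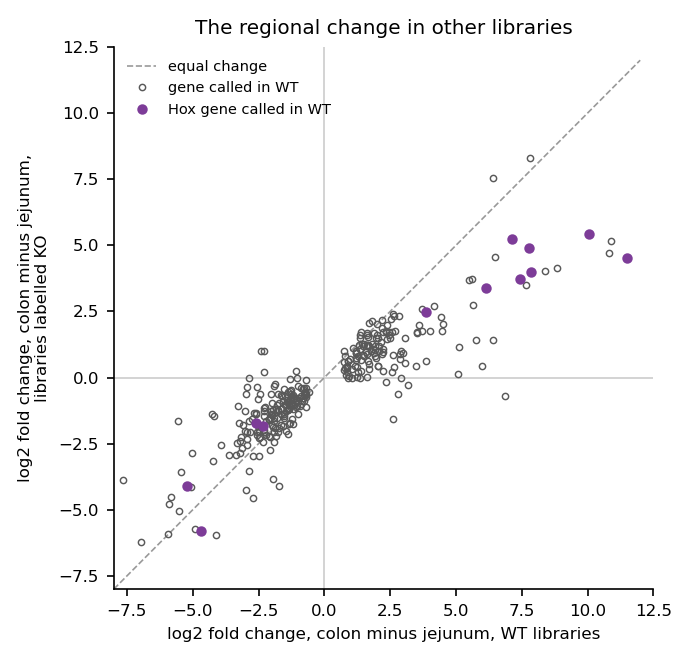
Log2 fold change, colon minus jejunum, in WT libraries (horizontal) and in libraries labelled KO (vertical) for the 325 called genes, with Hox genes in purple and a dashed line of equal change. Of the points, 312 share their sign, and 275 are smaller in size in the libraries labelled KO, which include KO jejunum m1.

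The difference between the 2 regional contrasts was tested directly. No gene passed (edgeR adjusted p of at least 0.353), with 869 at an unadjusted p under 0.05 and 37 called by DESeq2. The 4 smallest p belonged to P2ry14, Casq2, P2rx5 and Vsnl1. Casq2 stood at 29.6 ± 1.99 against 97.4 ± 22.2 CPM in WT colon and jejunum and at 1.63 to 3.47 and 37.9 to 50.3 CPM in the same regions labelled KO. Its difference of contrasts was 2.38 (SE 0.36, edgeR adjusted p = 0.353). Vsnl1, a neuronal calcium sensor, was at 2.22 ± 0.106 against 10.8 ± 2.33 CPM in WT and at 1.18 to 2.06 and 1.12 to 1.76 CPM in the libraries labelled KO. P2ry14, a receptor for UDP-glucose, was even in WT (23.3 ± 4.58 against 22.9 ± 0.969 CPM) and stood at 14.2 to 23.1 CPM in KO colon and 60.1 to 79.1 CPM in KO jejunum.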

How the data were processed

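Bulk RNA-seq of hand-isolated muscularis was deposited by the authors as 1 table of raw read counts per gene. Reads were aligned with STAR 2.0.4b and counted with featureCounts 1.4.5 of the Subread package on GRCm38, per the submitters' processing notes, which also list edgeR. No source used here gives the gene annotation or says whether counting used strand. Of 40757 rows, 276 repeated an Ensembl identifier with identical values and were dropped, and 20886 of 40481 genes passed edgeR's filter on low counts. Libraries were scaled by TMM, and edgeR 4.0.16 (R 4.3.3) quasi-likelihood tests with Benjamini-Hochberg adjustment compared WT colon with WT jejunum in a fit to all 12 bulk libraries, called at an adjusted p below 0.05. CPM values are counts scaled by TMM-adjusted library size, and levels were compared between samples only. DESeq2 1.42.0 and limma 3.58.1 (voom) were alternatives.

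The nuclei of WT colon were deposited as counts per feature and barcode from Cell Ranger ARC 2.0.0, per the file headers, on mm10. Nuclei with 500 or more UMIs were assigned to the list with the largest share of its markers detected. At least 3 markers and 1.5 times the share of the next list were needed, a rule chosen after exploring these nuclei. Counting intervals (95%) and floors of 3 counts cover counting error only. Single values were compared by exact permutation in R. Counting intervals of the nuclei used scipy 1.17.1, and promoter windows came from RefSeq for GRCm38.p6. Of 91 named called genes 69 had such a window.

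Samples were grouped by genotype and tissue labels. The comparison, its members and the gene lists were chosen with earlier results of these data known. Named genes were the 6 highest and 6 lowest fold changes among called genes whose groups did not overlap and whose average log2 CPM reached 1, and the 12 highest and 12 lowest of those that also passed with the epithelial covariate and were in no list of other tissues. Up to 6 called members of each list (or 2 with the smallest p where none passed), the 4 smallest p of the difference between genotypes, label markers and Hox genes were named too. Other genes, stated as such here, were named after their values were seen (Carmn, Ednrb, Nmur1, Sstr2, Tbx5, Cdx1 and those under other observations). Some genes are not reported here. Genotype contrasts and the other samples were not analysed here.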

Additional observations from a re-analysis of the deposited data

Results flagged for a closer look

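For P2rx5 and Sln every WT colon library lay above every WT jejunum library while every KO colon library lay below every KO jejunum library. Other genes with this pattern are not counted here. Over all genes, WT values did not overlap with colon higher in 11.2%, and values labelled KO did not overlap in either direction in 19.6%. P2rx5, an ATP-gated channel, had a difference between the 2 regional log2 fold changes of 3.41 (WT less labelled KO), with 3.98 to 10.9 CPM in WT colon, 0.693 to 1.25 CPM in WT jejunum, 1.87 to 3.97 CPM in KO colon and 4.10 to 4.31 CPM in KO jejunum. Its test of the difference gave an edgeR adjusted p of 0.582. Sln, sarcolipin, had a difference of 7.57 (edgeR adjusted p = 0.811), from 0.165 to 0.772 CPM in WT colon, no read in WT jejunum, 0.203 to 0.217 CPM in KO colon and 0.272 to 0.440 CPM in KO jejunum. The size for Sln rests on the prior count, since WT jejunum was at 0. Neither difference passed the threshold.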

How the results depend on the processing

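The number of genes called between the WT regions was 325. It was 1160 with DESeq2, which called 324 of the 325, and 904 with the 6 WT libraries alone, 303 of them shared. Leaving out 1 library in turn gave 79 to 557 calls, with fewer samples in each fit. Alternatives chosen after seeing the data gave 39 calls without WT colon t1 and t6, and 1056 without KO jejunum m1 and KO colon t4. With other size factors, scalings, filters and voom the count was 269 to 387, and with the epithelial covariate 281. Every gene called here kept its sign in each of these fits in which it was tested. For the difference between genotypes 37 genes passed with DESeq2 and 1 without KO colon m1, the leave-outs giving 0 to 1. Where not stated otherwise, the cause of a change was not tested. The difference in epithelial marker sum of 1041 CPM kept its sign and its side of the threshold under RLE and total-count scaling, but leaving out libraries moved no call since no p below 0.1 can be reached. The library tags were shared between regions. With the tag as a replicate block, 590 genes passed in the 6 WT libraries and 29 in the 12. Same-tag deviations correlated by 0.10 (t1), -0.00797 (t6) and 0.0609 (t7), and 1 of 3 tags matched itself best. With so few libraries a region, this check cannot show that the samples are unpaired. The labels do not say what the tags mark, and the main comparison did not treat them as pairs. Of the values for 157 named genes under the alternatives, 3244 kept their side of the threshold, 520 lost it, 82 gained it, 60 moved and none reversed. The smallest difference called was 0.60 on the log2 scale.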

Other observations

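Other genes with small adjusted p or large changes, named after their values were seen, were spread over receptors, kinases and matrix proteins. Smoc2, a matricellular calcium-binding protein, measured 71.7, 70.2 and 83.1 CPM in WT colon (t1, t6, t7) against 356, 405 and 329 CPM in WT jejunum (log2 fold change -2.28, edgeR adjusted p = 0.000325). Colec10, a collectin, measured 14.9, 12.9 and 10.4 CPM in WT colon (t1, t6, t7) against 221, 234 and 210 CPM in WT jejunum (log2 fold change -4.12, edgeR adjusted p = 0.000325). Dgkb, a diacylglycerol kinase, stood at 18.5 ± 2.25 against 172 ± 18 CPM. Tm6sf1 (log2 fold change -3.34) and Rgs10 (-2.20), a regulator of G protein signalling, were also higher in jejunum. These 5 genes passed in all 12 leave-outs.

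On the colon side, Prkcb, a classical protein kinase C, measured 76.6, 71 and 99.7 CPM in WT colon (t1, t6, t7) against 19.5, 20.1 and 13.2 CPM in WT jejunum (log2 fold change 2.23, edgeR adjusted p = 0.000687), and Ptprz1, a receptor tyrosine phosphatase, measured 154, 105 and 176 CPM in WT colon (t1, t6, t7) against 19.2, 13.2 and 19.4 CPM in WT jejunum (log2 fold change 3.07, edgeR adjusted p = 0.00364). Both passed in all 12 leave-outs. The peptide receptors Glp2r, for glucagon-like peptide 2, and Npy4r, for pancreatic polypeptide, stood at 78.1 ± 9.6 against 4.33 ± 1.07 CPM and 89.5 ± 24.4 against 4.07 ± 0.657 CPM. Fhl1, a LIM protein of muscle, and Calb2, calretinin of enteric neurons, had log2 fold changes of 2.92 and 1.62. Glp2r (0.0571) missed the threshold without WT jejunum t1 and Npy4r (0.0775) without any 1 WT jejunum library. Fhl1 (0.0622) missed the threshold without WT jejunum t6 or WT jejunum t7 and Calb2 (0.198) without any 1 WT library, KO colon t6, KO jejunum m1, KO jejunum t1 or KO jejunum t4.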
